A study of Mus musculus with 6 samples.

Results

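Mouse genes that were reported to take up cryptic exons when TDP-43 is missing were followed in endothelial cells (ECs) of the spinal cord. The 8 genes, *Adnp2*, *Synj2bp*, *Tecpr1*, *Spata13*, *Ift81*, *Mib1*, *Usp15* and *Smg5*, were taken by symbol from a table of 56748 genes, where each symbol had 1 row. All 8 passed the filter on low counts, which left 13107 genes to test. The ECs were sorted at postnatal day 16 (P16) from 3 control mice, with the floxed *Tardbp* gene (genotype Tardbpflox) and no Cre, and from 3 KO mice, with the same floxed gene and Cdh5(PAC)-CreERT2. In the KO mice, a tamoxifen-inducible Cre under the *Cdh5* promoter acts on *Tardbp*, the TDP-43 gene, in ECs, where the loxP sites flank exon 3. Both groups received tamoxifen (1 mg/mL) from P5 to P7, and both are on a C57BL/6 background. The paper describes no pooling of mice, so each library is taken here as 1 mouse. The libraries are bulk, so fewer cells of a type and less RNA per cell cannot be told apart.

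TDP-43 is a nuclear RNA-binding protein that recognises UG-rich RNA. When bound in an intron, it keeps the splicing machinery from using nearby sequence as an exon. Without TDP-43, such nonconserved cryptic exons can enter the mature mRNA, where they often shift the reading frame or bring in a stop codon, and the mRNA can then be removed by nonsense-mediated decay. Which cryptic exons appear differs between cell types. The values analysed here are read counts over whole genes, so exon use was not measured, and a transcript with a cryptic exon is counted like any other unless its level differs.

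Because TDP-43 binds UG repeats, the introns of the 8 genes were searched for TG repeats on the transcribed strand. The search was for at least 6 uninterrupted TG units between the annotated exons of each gene, in GRCm39 with GENCODE M39, and each uninterrupted run counted once. The sequences below show, 5′ to 3′ on the transcribed strand, the longest run in 2 genes that were lower in every KO mouse (*Synj2bp* and *Tecpr1*), in *Spata13*, which has the largest number of runs, and in *Usp15*, which has the fewest per length. Capitals mark the uninterrupted TG units and lower case the 15 bases on either side.

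Synj2bp: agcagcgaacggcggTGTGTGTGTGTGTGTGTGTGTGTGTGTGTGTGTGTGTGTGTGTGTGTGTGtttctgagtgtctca
Tecpr1: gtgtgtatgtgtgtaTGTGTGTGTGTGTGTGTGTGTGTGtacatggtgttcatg
Spata13: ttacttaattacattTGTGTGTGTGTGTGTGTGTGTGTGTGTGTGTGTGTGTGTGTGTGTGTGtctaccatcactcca
Usp15: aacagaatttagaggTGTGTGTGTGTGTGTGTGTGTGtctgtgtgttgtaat

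The *Synj2bp* sequence lies at chr12:81579048-81579127 on the minus strand, in intron 1 of its canonical transcript of 4 exons, and holds 25 TG units. The *Tecpr1* sequence lies at chr5:144140030-144140083 on the minus strand, in intron 16 of a transcript of 25 exons, and holds 12 units, with further TG pairs interrupted by A beside them. The *Spata13* sequence lies at chr14:60957145-60957222 on the plus strand, in intron 4 of a transcript of 13 exons, and holds 24 units. The *Usp15* sequence lies at chr10:122986829-122986880 on the minus strand, in intron 6 of a transcript of 21 exons, and holds 11 units. Over all tested genes with a run, the median of the longest run was 21 units. The runs shown are matches of letters in the reference and not measured binding sites.

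All 8 genes had at least 1 such TG run, as did 68.0% of the 11737 tested genes with an annotated intron. With at least 10 units required, all 8 genes still had a run, as did 59.1% of those genes. The number of runs was 14 in *Spata13*, 12 in *Ift81*, 9 in *Mib1*, 5 in *Adnp2*, 4 in *Synj2bp* and 2 each in *Tecpr1*, *Usp15* and *Smg5*. Introns were longest in *Spata13* (121.4 kb) and shortest in *Tecpr1* (15.0 kb), while *Usp15* had few runs for its 70.6 kb. Per 100 kb of intron, the 8 genes together had 10.9 runs on the transcribed strand, where all tested genes had 11.4. On the opposite strand the values were 8.92 and 8.43 runs per 100 kb, and *Tecpr1* had 10 runs there against 2 on its own strand. The 3 genes that were lower in every KO mouse had 13.8 (*Synj2bp*), 13.3 (*Tecpr1*) and 11.8 (*Mib1*) runs per 100 kb, and *Usp15* had 2.83. By density, the 8 genes thus lay among other expressed genes, between the 33.3 percentile for *Usp15* and the 75.2 percentile for *Ift81*.

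**Figure D1:**
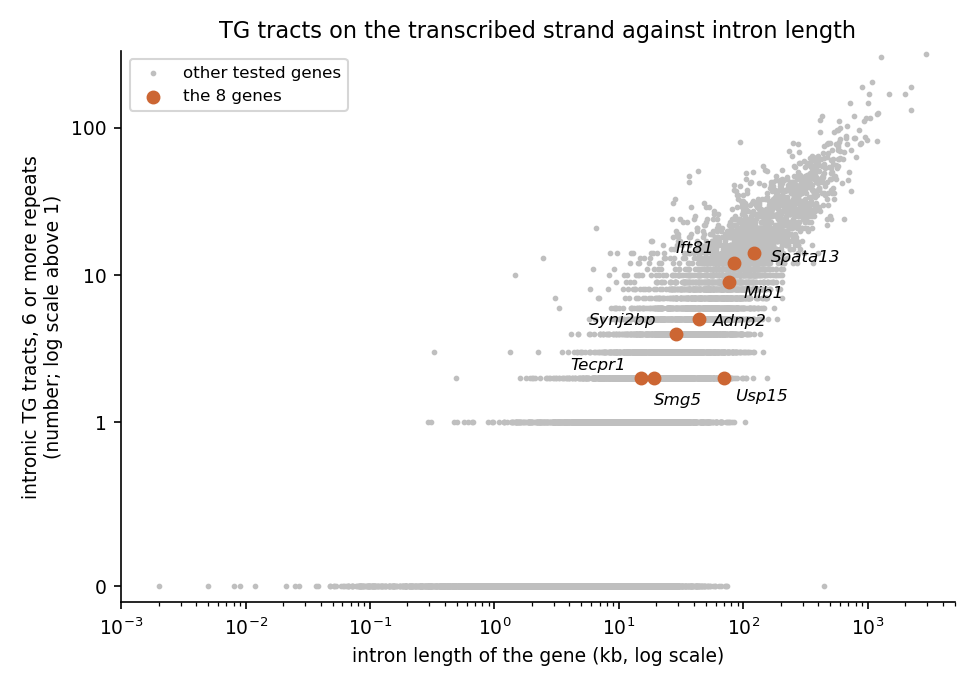
Number of uninterrupted runs of at least 6 TG units on the transcribed strand in the introns of each tested gene (y axis, logarithmic above 1) against the total intron length of the gene in kb (x axis, log scale), for the 8 genes (orange) and all other tested genes with an intron (gray). The 8 genes have 2 to 14 runs and lie within the cloud of other genes of similar intron length.

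The libraries held 25704871 to 47270654 counts, and 3 counts corresponded to 0.0635 to 0.117 CPM, which is the count scaled to the library total. *Tardbp*, the targeted gene, kept 31.9% of its control level in the KO mice on average, with 982, 599.9 and 433 normalized counts in KO mice 1, 2 and 3. Normalized counts are counts divided by DESeq2 size factors. The 7 EC markers summed to 9505 to 13322 CPM in control and 9493 to 12228 CPM in KO mice. Among them, *Flt1* (63.4% of control, adjusted p = 0.0635 in limma) and *Kdr* (85.1%) were lower in every KO mouse. This held for 2 of the 7 markers and for 7.10% of all tested genes, and the other markers overlapped. Markers of other cells were also counted, and the sums of the neuron markers and of the hemoglobin genes did not overlap between the groups. The 6 oligodendrocyte lineage markers, all counted in at least 1 library, summed to 288 to 546 CPM in control mice and to 503, 59.5 and 15.7 CPM in KO mice 1, 2 and 3. The 6 neuron markers, all counted in at least 1 library, summed to 4.995 to 11.1 CPM in control mice and 1.95 to 3.54 CPM in KO mice. *Map2*, *Nefl* and *Snap25* were at 0 in every KO mouse, and *Syt1* was at 0 in every control. *Rbfox3* was higher in every KO mouse (means of 0.555 and 40.6 normalized counts). Of the 6 libraries, *Map2* and *Syt1* had 0 counts in 5 each, *Nefl* in 4 and *Snap25* in 3. The 4 hemoglobin genes summed to 6304 to 9698 CPM in control and 2186 to 2898 CPM in KO mice. Of the 6 microglia and macrophage markers, *Adgre1* had 0 counts in every library, and the sums were 0 to 1.80 and 0.244 to 8.21 CPM. The part of other cells in the results on the 8 genes was not tested, except where values are given below.

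*Tecpr1*, *Mib1* and *Synj2bp*, 3 of the 8 genes, were lower in every KO mouse than in every control mouse. Their means in KO mice were 31.8%, 27.8% and 26% of control, beside 31.9% for *Tardbp* itself. *Usp15*, *Spata13*, *Smg5*, *Adnp2* and *Ift81* had groups that overlapped. None of the 8 passed an adjusted p of 0.05 in limma with Benjamini-Hochberg adjustment over the 13107 genes, where 0.137% of all tested genes passed. *Tardbp*, the deleted gene, did not pass either (log2 fold change -1.62, unadjusted p = 0.00332, rank 150, adjusted p = 0.287 in limma). Without adjustment, 3 of the 8 were lower in the KO mice with a p under 0.05, where 5.0% of all tested genes were, and 0 were higher, where 4.26% were. The groups did not overlap, with the KO mice lower, for the same 3 of 8 genes and for 7.10% of all tested genes, and with the KO mice higher for 0 of 8 and for 7.93%. The median log2 fold change was -1.13 over the 8 genes and -0.02 over all tested genes. The median over the 8 was not stable. It was -0.36 with edgeR, -0.32 with DESeq2, -0.52 with the replicate block, -0.45 without KO mouse 1 and -0.32 from the ratio of group means. In each of these, *Ift81* turned positive, and *Smg5* or *Spata13* turned negative as well. With at least 10 counts required in every library, which left out *Ift81* and *Adnp2*, the median was -1.11. Fold changes are those of KO over control mice throughout.

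**Figure D2:**
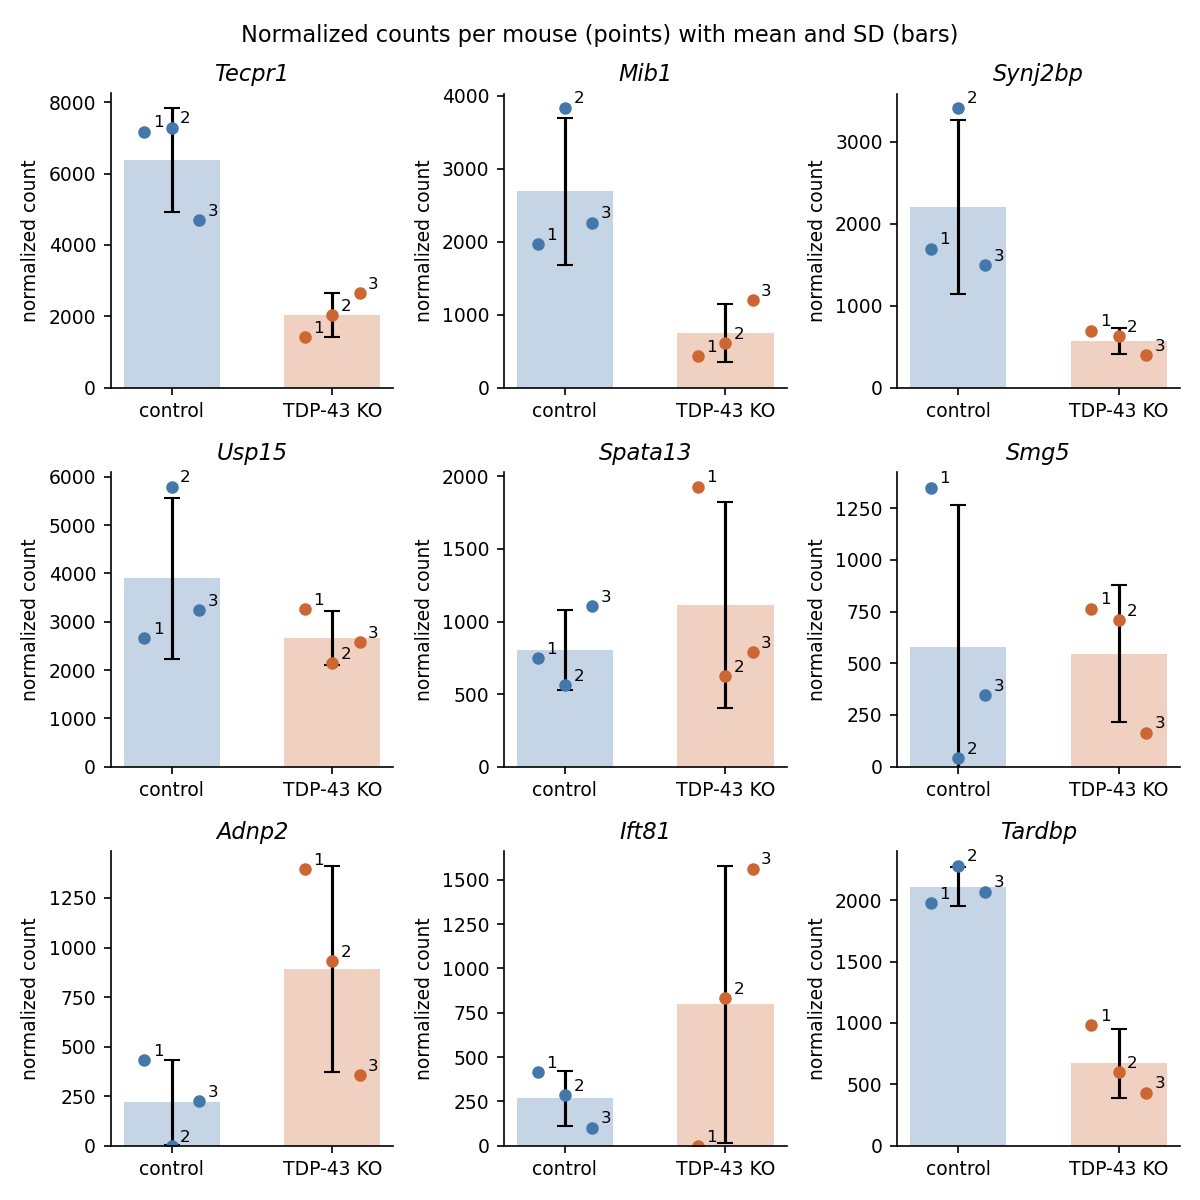
Normalized counts (y axes, linear and starting at 0) of the 8 genes and of *Tardbp* in each control mouse (blue) and KO mouse (orange), with points numbered by mouse and bars showing the mean with SD (n = 3 mice each). *Tecpr1*, *Mib1*, *Synj2bp* and *Tardbp* are lower in all 3 KO mice than in any control mouse, while the other 5 genes overlap between the groups.

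*Tecpr1* (ENSMUSG00000066621.13, chr5:144131258-144160913, minus strand) encodes a protein that takes part in the fusion of autophagosomes with lysosomes. It had 7176, 7287 and 4701 normalized counts in controls 1, 2 and 3 against 1416, 2023 and 2651 in KO mice 1, 2 and 3. The lowest control mouse was thus well above the highest KO mouse, and *Tecpr1* had the smallest p of the 8 genes. Mean levels were 6388 ± 1462 in controls and 2030 ± 618 in KO mice (SD, n = 3 mice each). The log2 fold change was -1.78 (95% interval -2.51 to -1.06, standard error 0.32). The unadjusted p from limma was 0.000373, rank 37 of the 13107 genes, and the adjusted p was 0.129. The KO mouse with most *Tardbp* left, mouse 1, had the least *Tecpr1* and *Mib1* of the KO mice but the most *Synj2bp*. A relation to the remaining *Tardbp* was not tested. The same mouse had oligodendrocyte markers at 503 CPM, within the control range, and the lowest hemoglobin sum, 2186 CPM, and the part of either in the *Tecpr1* value was not tested.

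*Mib1* (ENSMUSG00000024294.15, plus strand, 21 exons in the canonical transcript) encodes an E3 ubiquitin ligase that acts on Notch ligands in the signal-sending cell and is needed for them to activate Notch. It had 1964, 3840 and 2263 normalized counts in controls 1, 2 and 3 against 437, 611 and 1199 in the KO mice. Control mouse 2 stood above the other controls, and all 3 KO mice lay below every control. Mean levels were 2689 ± 1008 in controls and 749 ± 399.6 in KO mice (SD, n = 3 mice each), at a log2 fold change of -2.10 (95% interval -3.23 to -0.97, standard error 0.50). The unadjusted p from limma was 0.00230 (rank 112) and the adjusted p was 0.270.

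*Synj2bp* (ENSMUSG00000090935.11, chr12:81538974-81579699, minus strand) encodes a tail-anchored protein of the outer mitochondrial membrane with a PDZ domain, known in ECs for binding Delta-like Notch ligands. It had 1698, 3420 and 1496 normalized counts in controls 1, 2 and 3 against 697, 628 and 395 in the KO mice. As for *Mib1*, control mouse 2 was the highest, and the KO mice were close together. Mean levels were 2205 ± 1057 in controls and 573 ± 159 in KO mice (SD, n = 3 mice each). The log2 fold change was -1.82 (95% interval -3.06 to -0.58, standard error 0.55). The unadjusted p from limma was 0.00911 (rank 321) and the adjusted p was 0.370.

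For each of these 3 genes, an exact 2-sided permutation test of the log2 normalized counts gave p = 0.1, the smallest that 3 mice against 3 allow. The log2 fold change of each stayed negative in all 17 alternatives, from -1.99 to -1.49 for *Tecpr1*, -2.41 to -1.67 for *Mib1* and -2.04 to -1.51 for *Synj2bp*. When single mice were left out, the unadjusted limma p was at most 0.00337 for *Tecpr1*, 0.0192 for *Mib1* and 0.0317 for *Synj2bp*. The adjusted call depended on the test. With DESeq2's Wald test, all 3 genes passed the threshold, with adjusted p of 0.000330, 0.0310 and 0.0127 in the same order, where 1.08% of all tested genes passed as lower. *Tardbp* passed in that test too (adjusted p = 0.0221). *Tecpr1* also passed in limma with quantile normalization (adjusted p = 0.0487, where 0.175% of genes passed as lower) and with at least 10 counts required in every library (adjusted p = 0.0497, where 0.323% did). With edgeR's quasi-likelihood test, 0 of the 8 genes passed, as did 0 of all genes, while the same 3 of the 8 were lower with an unadjusted p under 0.05, where 3.75% of all genes were. Over the 17 alternatives, the adjusted p reached 0.536 for *Tecpr1*, 0.637 for *Mib1* and 0.690 for *Synj2bp*.

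**Figure D3:**
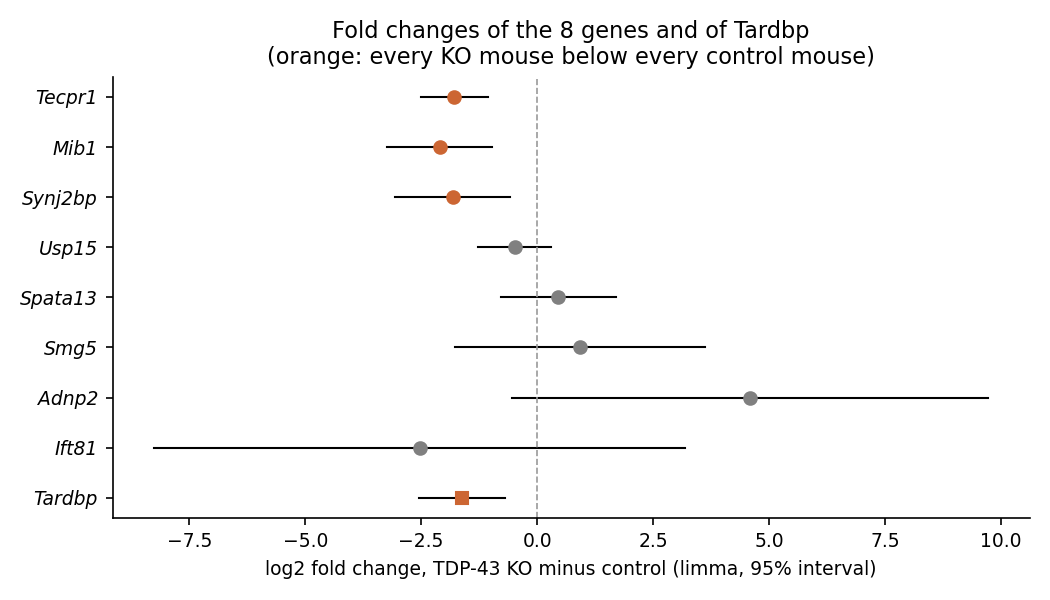
Log2 fold change (x axis) of each of the 8 genes (circles) and of *Tardbp* (square) with its 95% confidence interval from limma (lines), where orange marks genes with all KO mice below all control mice. The intervals of *Tecpr1*, *Mib1*, *Synj2bp* and *Tardbp* lie below 0, and those of the other 5 genes include 0.

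*Usp15* (ENSMUSG00000020124.11, chr10:122940911-123032900) encodes a deubiquitinase with roles in TGF-β signaling. It had 2660, 5797 and 3242 normalized counts in controls against 3265, 2150 and 2574 in KO mice. The highest value was that of control mouse 2, and KO mouse 1 lay above 2 of the controls. The log2 fold change was -0.48 (95% interval -1.26 to 0.30, standard error 0.34, adjusted p = 0.663 in limma). The difference between *Usp15* and the 3 genes above was not tested.

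*Spata13* (ENSMUSG00000021990.17, chr14:60871450-61002005) encodes the guanine nucleotide exchange factor ASEF2, which binds the APC protein. It had 747, 563 and 1104 normalized counts in controls against 1930, 623 and 788 in KO mice. KO mouse 1 alone was above the controls. The log2 fold change was 0.46 (95% interval -0.78 to 1.69, standard error 0.55, adjusted p = 0.808 in limma), and it was -0.21 without KO mouse 1.

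*Smg5* (ENSMUSG00000001415.11, chr3:88243555-88269646) encodes a factor of the nonsense-mediated decay pathway itself, which helps to dephosphorylate UPF1. It had 1350, 40.1 and 348 normalized counts in controls against 765, 711 and 165 in KO mice, so the controls spread more widely than the KO mice and enclosed them. The group means were close, 579 ± 685 and 547 ± 332 (SD, n = 3 mice each). Its log2 fold change was 0.92 (95% interval -1.78 to 3.63, standard error 1.19, adjusted p = 0.819 in limma), and its sign turned without control mouse 2 (-0.48).

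*Adnp2* (ENSMUSG00000053950.11, minus strand, 4 exons in the canonical transcript) encodes a zinc finger and homeobox protein of the nucleus. It had 432, 0 and 223 normalized counts in controls 1, 2 and 3 against 1394, 930 and 355 in KO mice. Control mouse 2 had no count at all. Its library was not the smallest in total, but it had the fewest genes with a count, 12972 against 14103 to 16557 in the other libraries. KO mouse 3 fell between the other 2 control values. The log2 fold change of 4.59 (95% interval -0.54 to 9.73, adjusted p = 0.561 in limma) rested on that 0, and it was 1.42 without control mouse 2. It was positive in all 16 alternatives that gave a value and passed the threshold in none of them.

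*Ift81* (ENSMUSG00000029469.15, chr5:122658556-122752612) encodes a subunit of intraflagellar transport complex B, which carries cargo such as tubulin along cilia. It had 413, 286 and 102 normalized counts in controls against 0, 832 and 1562 in KO mice 1, 2 and 3. KO mice 2 and 3 were above every control, and KO mouse 1 had no count. Because of this 0, the mean was higher in KO mice (798 ± 782 against 267 ± 156, SD, n = 3 mice each) while the log2 fold change in limma was negative (-2.53, 95% interval -8.25 to 3.20, adjusted p = 0.760). Without KO mouse 1 it was 2.24 (unadjusted p = 0.0212, adjusted p = 0.646 in limma), so no direction can be given for *Ift81*. For the 5 genes whose groups overlapped, the exact permutation test gave p from 0.2 to 1.

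**Figure D4:**
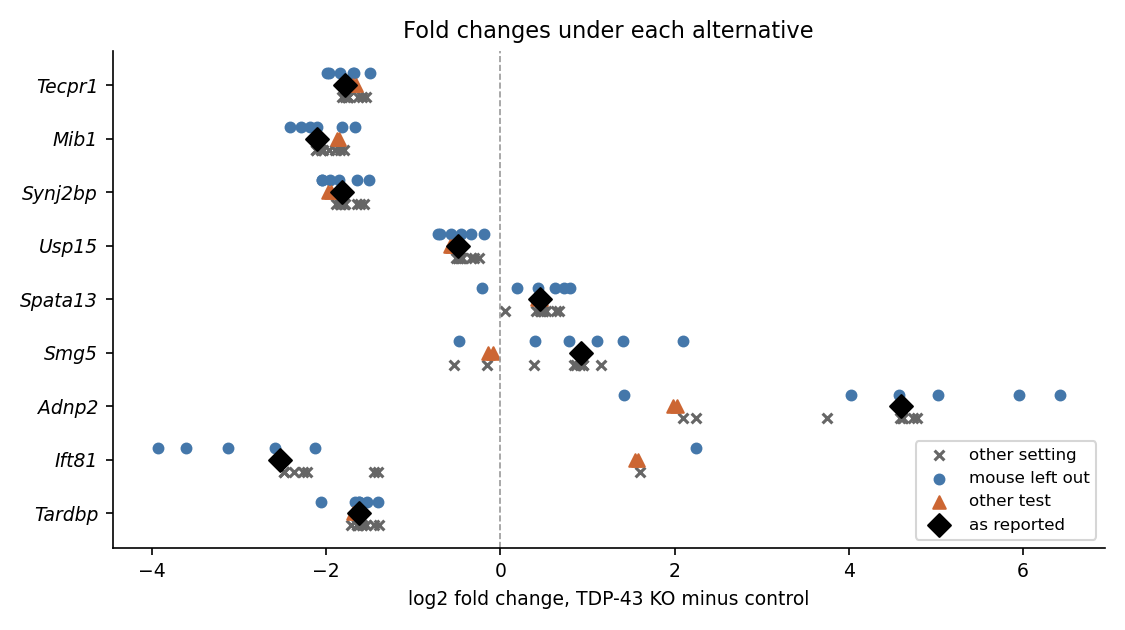
Log2 fold change (x axis) of the 8 genes and of *Tardbp* as reported (black diamonds), with each mouse left out (blue circles), with edgeR or DESeq2 (orange triangles) and with other settings of limma (gray crosses). *Tecpr1*, *Mib1*, *Synj2bp* and *Usp15* stay below 0 and *Adnp2* above 0 in every fit, while *Spata13*, *Smg5* and *Ift81* cross 0.

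The expression levels of the 8 genes in control ECs were compared per kb of merged annotated exons. *Tecpr1* had the highest level, 437 ± 99.9 normalized counts per kb (SD, n = 3 mice), at the 81.5 percentile of all tested genes. *Synj2bp* (188 ± 90.2 per kb), *Usp15* (182 ± 77.8 per kb) and *Mib1* (160 ± 60.04 per kb) followed and did not differ from each other beyond their spread. *Spata13* (88.3 ± 30.2 per kb) and *Smg5* (82.9 ± 98.1 per kb) were next. *Ift81* (27.9 ± 16.3 per kb) and *Adnp2* (26.3 ± 26.01 per kb) were lowest, at the 22.4 and 21.4 percentiles. The 4 genes of highest level held all 3 that were lower in every KO mouse, and *Ift81* and *Adnp2*, which had the widest intervals, had the lowest levels. With the longest transcript as the length, the level of *Tecpr1* was 1116 per kb and it remained the first of the 8, *Usp15*, *Mib1* and *Synj2bp* followed, and *Ift81* and *Adnp2* remained the lowest. In KO mice, *Tecpr1* (139 ± 42.2 per kb), *Usp15* (124 ± 26.2 per kb) and *Spata13* (122 ± 78.2 per kb) lay side by side.

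Other annotated genes overlap part of the exons of some of the 8, and the counting did not use the strand. The largest overlap was in *Synj2bp*, where genes on the opposite strand cover 30.8% of its exonic sequence, chiefly the noncoding *Gm28370*, and a readthrough gene on its own strand covers 3.61%. *Gm28370* had 0 to 26 counts in any library, against at least 278 for *Synj2bp*. Both are estimated counts, and how reads on the shared bases were divided between these genes was not examined. The readthrough gene had no row under its name in M39. In *Smg5* the overlap was 16.0%, in *Ift81* 6.28%, in *Tecpr1* 5.58%, in *Mib1* 1.32% and in *Usp15* 2.13% on the same and 0.788% on the opposite strand, and *Adnp2* and *Spata13* had none. Transcripts of other genes matched at least 51 bases at 97% identity or more over 40.3% of the *Synj2bp* transcript, 20.2% of that of *Ift81*, 19.2% of *Smg5* and 7.07% of *Tecpr1*, and over at most 3.65% of the other 4, so the level of *Synj2bp* is the least certain of the 8 in this respect. *Mib1* lies on chromosome 18 from 10725511 to 10818704 and *Adnp2* on the same chromosome from 80143058 to 80195057.

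Transcripts with a premature stop are degraded by nonsense-mediated decay, in which UPF1 and its partners act together with the kinase SMG1, and in which the exon junction complex marks where introns were removed. Of 12 genes of the decay pathway, *Smg5* included, 0 passed the adjusted threshold. With an unadjusted p under 0.05 in limma, 1 was lower, where 5.0% of all tested genes were, and 0 were higher, where 4.26% were. The median log2 fold change of the 12 genes was -1.31, beside -0.02 over all tested genes, with 9 values below 0 and 3 above. The standard error of a single gene was large (median 1.12). This median was 0.37 without KO mouse 1, -0.21 with edgeR, -0.32 with the replicate block and -0.17 with DESeq2 or from the ratio of group means, so no direction can be given for the list. *Smg1*, the kinase that phosphorylates UPF1, had 1999, 3497 and 2244 normalized counts in controls against 526, 1803 and 1711 in KO mice, so all KO mice were below all controls. This held for 1 of the 12 genes and for 7.10% of all tested genes. The log2 fold change of *Smg1* was -1.31 (standard error 0.49, unadjusted p = 0.0257, adjusted p = 0.483 in limma). *Smg6*, the endonuclease of the pathway, had 772, 341 and 695 normalized counts in controls against 31.1, 680 and 1236 in KO mice, which overlapped (log2 fold change -1.90, standard error 1.17, adjusted p = 0.615 in limma).

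The 5 genes of the exon junction complex had log2 fold changes from -0.54 to 0.58 with a median of -0.06. With an unadjusted p under 0.05 in limma, 0 of them were lower or higher, where 5.0% and 4.26% of all tested genes were. *Magoh* (-0.54, standard error 0.33), *Magohb* (0.58, standard error 0.65) and *Eif4a3* (-0.06, standard error 0.20), 3 of the core subunits, had adjusted p from 0.614 to 0.940 in limma. *Eif4a3* was the most precisely measured of them, with 7085, 9907 and 7722 normalized counts in control and 6826, 8975 and 8878 in KO mice.

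Of 18 genes of intraflagellar transport complex B, *Ift81* included, 16 were tested and 0 passed the adjusted threshold, with a median log2 fold change of 0.44, 11 values above 0 and 5 below, and the median was -0.038 without control mouse 3. *Ift22*, a small GTPase of the complex, had 815, 1494 and 943 normalized counts in controls against 96.3, 322 and 75.2 in KO mice. Every KO mouse was below every control, which held for 1 of the 16 genes and for 7.10% of all tested genes. The log2 fold change of *Ift22* was -3.05 (standard error 1.01, unadjusted p = 0.0148, adjusted p = 0.429 in limma). With DESeq2's Wald test its adjusted p was 0.0265, where 1.08% of all tested genes passed as lower. *Ift74*, which forms a dimer with IFT81, had 462, 1255 and 732 normalized counts in control and 665, 753 and 546 in KO mice, which overlapped (log2 fold change -0.22, standard error 0.51, adjusted p = 0.910 in limma). *Ttc30b* and *Ttc26*, the older names of *Ift70b* and *Ift56*, each had a control mouse at 0 and adjusted p of 0.615 and 0.652 in limma.

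Close relatives and partners of the 8 genes were set beside them, and 0 of the 11 that were tested passed the adjusted threshold. Their median log2 fold change was -0.88, and it was -0.22 without KO mouse 1 and -0.14 without KO mouse 3. For *Tecpr1*, the partner *Atg5*, whose product with ATG12 is bound by TECPR1 on autophagosomes, had 3118, 3564 and 2723 normalized counts in control and 1435, 2267 and 1743 in KO mice. All KO mice lay below all controls for *Atg5*, which held for 1 of the 11 genes and for 7.10% of all tested genes. The log2 fold change of *Atg5* was -0.88 (standard error 0.28, unadjusted p = 0.0126, adjusted p = 0.404 in limma). *Atg12* had 2852, 3457 and 3329 in control and 3527, 3586 and 2712 in KO mice (log2 fold change 0.01, standard error 0.23). *Tecpr2*, the paralog of *Tecpr1*, was low and uneven, with 106, 649 and 773 in control and 746, 330 and 0 in KO mice. *Mib2*, the paralog of *Mib1*, had 409, 1133 and 539 in control and 117, 617 and 751 in KO mice (log2 fold change -1.23, standard error 0.81, adjusted p = 0.639 in limma). These values overlapped between the groups, and the difference between the changes of *Mib1* and *Mib2* was not tested.

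Of the relatives of the other genes, *Usp4* had 4484, 1529 and 3559 normalized counts in control and 3711, 4726 and 4806 in KO mice (log2 fold change 0.52, standard error 0.39, adjusted p = 0.673 in limma), and its paralog *Usp11* was low, from 0 to 246 in any mouse. *Apc*, whose product binds the exchange factor encoded by *Spata13*, had 2576, 1110 and 2691 in control and 2227, 1367 and 2343 in KO mice (log2 fold change -0.07, standard error 0.43). *Synj2*, whose product binds the PDZ domain of SYNJ2BP, had 131, 1033 and 36.5 in control and 0, 529 and 0 in KO mice, with an adjusted p of 0.601 in limma. *Adnp*, the paralog of *Adnp2*, and *Arhgef4*, the paralog of *Spata13*, did not pass the filter on low counts and had at most 116 and 59.2 normalized counts in any mouse.

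**Figure D5:**
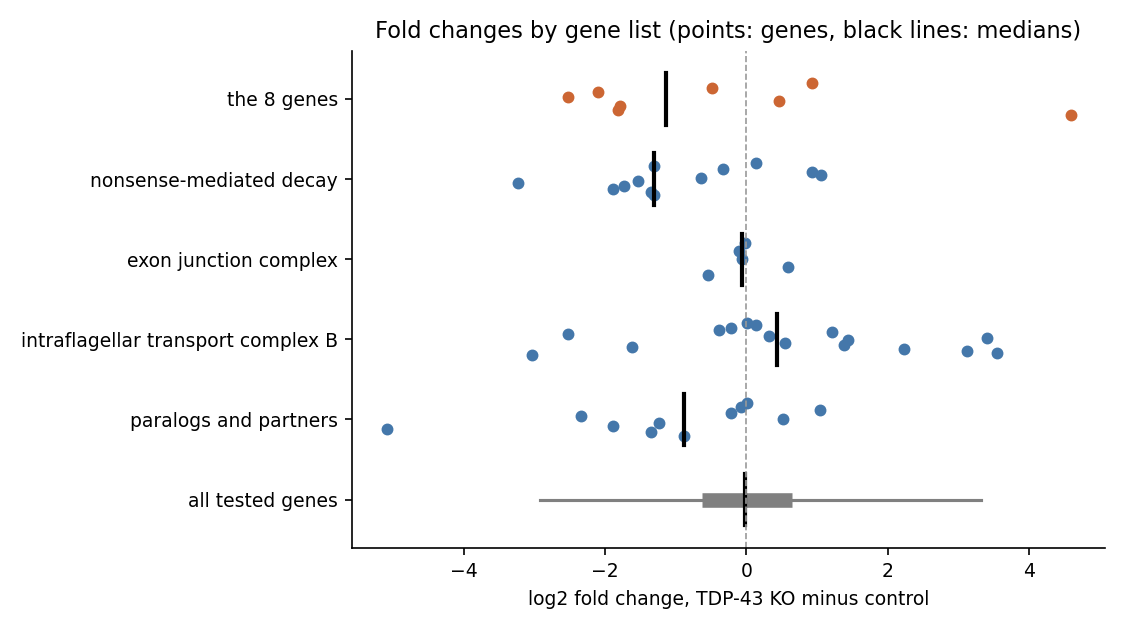
Log2 fold change (x axis) of every tested gene in each list (points), with the median of the list as a black line, beside all tested genes (thick gray bar, 25th to 75th percentile, and thin line, 5th to 95th percentile). The medians are -1.13 for the 8 genes, -1.31 for nonsense-mediated decay, -0.06 for the exon junction complex, 0.44 for intraflagellar transport complex B, -0.88 for relatives and partners and -0.02 for all tested genes. The first of these was -0.32 with DESeq2, and the second was -0.17 with DESeq2 and 0.37 without KO mouse 1.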

How the data were processed

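The authors mapped the reads to GRCm39 with STAR 2.7.8a, estimated counts for GENCODE M30 genes with RSEM 1.3.0 and deposited these estimated counts as whole numbers (0 values were not whole), unscaled and per library. Libraries were made with SMARTseq2, so PCR copies count as reads. The paper states that RNA input varied with what each sample yielded, and it gives more than a single number of cDNA amplification cycles. Its methods do not give either per library, and their part in the results was not tested. Groups came from the labels. KO and control mice were compared across all genes with limma 3.58.1 (voom, TMM, filterByExpr of edgeR 4.0.16, R 4.3.3), 95% intervals and Benjamini-Hochberg adjustment, without covariates, as the methods of the study name none. Normalized counts used the size factors of DESeq2 1.42.0. An exact permutation test over mice used log2(normalized count + 1). Positions, lengths and introns came from GENCODE M39 on GRCm39, which matched 98.7% of the gene identifiers. The members and lists were chosen with earlier results of these data known. The genes named are the 8 members, *Tardbp*, per list those past the threshold or the 3 of lowest p, and each listed relative, of which 1 is not reported here. The tests were checked on simulated counts. Alternatives are given in the closing section.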

Additional observations from a re-analysis of the deposited data

How the results depend on the processing

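Each choice was changed alone in 17 alternative fits. Of the 8 genes, 0 passed the adjusted threshold as reported, 3 with DESeq2's Wald test, 1 with quantile normalization and 1 with at least 10 counts in every library, a filter that left out *Adnp2* and *Ift81*. The calls with DESeq2 were *Tecpr1* (log2 fold change -1.65), *Mib1* (-1.85) and *Synj2bp* (-1.94), and the single call in the other 2 fits was *Tecpr1* (-1.74 and -1.76). DESeq2 also passed 1 gene of intraflagellar transport complex B. *Ift81* turned positive with edgeR (1.54), DESeq2 (1.58) and the replicate block (1.60), and ranged from -3.93 to 2.24 with a mouse left out. *Smg5* turned negative with edgeR (-0.14), DESeq2 (-0.084), sample quality weights (-0.15) and the replicate block (-0.53), and ranged from -0.48 to 2.10 with a mouse left out, and *Spata13* ranged from -0.21 to 0.80. The median over the 8 genes was -0.36 with edgeR, -0.32 with DESeq2 and -0.52 with the replicate block, and from -1.28 to -0.45 with a mouse left out, the latter without KO mouse 1. From the ratio of group means, chosen after seeing the data, it was -0.32. The cause was not tested, beyond the 0 counts of *Adnp2* and *Ift81*. Of 134 fold changes of the 8 genes, 119 kept their direction and side of the threshold. The numbers 1 to 3 are not stated to pair the mice. Deviations from the group means of same-numbered mice correlated at -0.06, -0.11 and -0.02 across genes, and those of differently numbered mice at -0.04 to 0.11. With so few mice, these values cannot settle whether the mice were paired. *Adnp2*, *Ift81* and *Smg5* had 45 counts or fewer in 1 library each, and these were not the shallowest libraries by total count. For *Adnp2* and *Smg5* it was that of control mouse 2, which had the fewest genes with a count (12972). Scaling to library size or to EC markers moved the median of all genes to 0.18 or 0.23, and *Tecpr1*, *Mib1* and *Synj2bp* stayed negative in both. The 5 EC markers of this scaling included *Flt1* and *Kdr*, which were themselves lower in every KO mouse.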
